A study of Homo sapiens with 5 samples.

Results

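The genes described here are 37 genes of the actin and myosin contractile machinery, read from RNA sequencing of LX-2 cells after knockdown of LIX1L. They were taken by the Ensembl ID of their current symbol, and all 37 were found among the 19936 genes of each library. LX-2 is an immortalised human line derived from hepatic stellate cells, pericytes that turn into contractile, matrix-producing myofibroblasts in injury. In 3 libraries the cells had been transfected with small interfering RNA (siRNA) against LIX1L, which encodes a protein with a predicted double-stranded RNA-binding domain, and in 2 libraries with control siRNA. All 5 libraries were made 48 h after transfection from this 1 line in culture. The labels number the libraries of a group and do not say whether a number stands for a replicate or for a separate siRNA. Separate cultures within a group are not stated in the labels, so every p-value below reflects the spread of these 5 libraries alone and may be technical.

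Contraction of smooth muscle and of myofibroblasts starts when myosin light chain kinase phosphorylates the regulatory light chain of myosin II, whose heads then pull on actin filaments. RHOA and its kinases ROCK1 and ROCK2 oppose the phosphatase that reverses this step. Tropomyosins, caldesmon and calponins bind along the filaments, and α-actinins and filamin crosslink them. Most proteins of this machinery come in a form of muscle and a form of all cells. The muscle forms are induced by serum response factor (SRF) with its coactivators myocardin and the MRTFs, which bind the DNA element called the CArG box, and α smooth muscle actin (ACTA2) is the usual marker of an activated stellate cell.

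Depth was 14856104, 15103292 and 17811940 reads over genes in siLIX1L 1, 2 and 3, against 14877647 and 18294056 in control 1 and 2. Levels are given in RPM, reads per 1000000 of these totals, unless stated otherwise. LIX1L itself had 98, 107 and 65 reads in siLIX1L 1, 2 and 3, against 393 and 649 in the controls. It was 5.56-fold lower over the pooled reads, with an exact 95% interval of 4.86 to 6.38 for counting error. Of 18 stellate cell markers, 14 reached 1 RPM in 2 libraries or more, with summed levels of 6837 to 7195 RPM after LIX1L siRNA and 4148 to 11239 RPM in controls, while LRAT, an enzyme of retinoid storage, had no read, and DES and GFAP were under 1 RPM. Of 9 striated muscle markers 1, and of 6 vascular smooth muscle markers 5, reached that level, and the smooth muscle sum was 37.4 to 43.1 RPM against 40.9 to 42.7 RPM. That sum joins opposite signs. SYNPO2 (25.0, 30.3 and 14.1 RPM against 12.8 and 9.35 RPM) and MYH11 were higher in every siLIX1L library than in both controls. MYOCD was lower in every siLIX1L library, and CNN1, LMOD1 and DES overlapped. Mitochondrially encoded genes took 1.08 to 1.29% of reads after LIX1L siRNA and 2.24 and 3.35% in the controls; whether this difference has a part in the results below was not tested.

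The set as a whole did not move in 1 direction, and 1 gene, ACTA2, was called lower, in the test on reads. In the main test, limma on log2(FPKM + 1), 29 of the 37 genes reached the minimum of 1 FPKM in 2 libraries. None of the 29 passed an adjusted p of 0.05, against 1.87% of all 6464 genes tested. An unadjusted p under 0.05 was found for 4 of them (MYLK, ACTN4, TPM2 and MYL9), against 1785 of the 6464. Of the 29, 14 differences were negative and 15 positive, with a median of 0.00, against -0.01 over all genes tested. The other 8 (ACTA2, MYH11, LMOD1, MYOCD, MRTFA, MRTFB, ROCK1 and ROCK2) were under the minimum. The deposited FPKM divide by the whole gene with its introns. Per kb of the longest transcript, ACTA2, MRTFA, MRTFB, ROCK1 and ROCK2 had group means of 4.38 to 27.6 RPM. MYH11, MYOCD and LMOD1 were low by that measure too, with group means of 0.0800 to 1.46 RPM. EdgeR on the reads recovered from the FPKM covered all 37 genes and called ACTA2, against 0.891% of the 13026 genes it tested. Its unadjusted p was under 0.05 for 9 of the 37, against 3355 of the 13026. DESeq2 on the same reads called 3, ACTA2 lower and MYLK and ACTN4 higher, against 9.9% of all genes. The groups did not overlap in 7 of the 29 genes (24.1%), against 46.5% of genes in the limma test. The same held for 13 of the 37 (35.1%), against 44.1% of genes in the edgeR test. Without control 1, limma called 1 of the 29 lower and 4 higher, against 24.1% of all genes, and edgeR 4 of the 37 lower and 6 higher, against 22.4%. Those fits keep 1 control and take the spread from the siLIX1L libraries, of which 1 and 2 were close to each other.

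**Figure D1:**
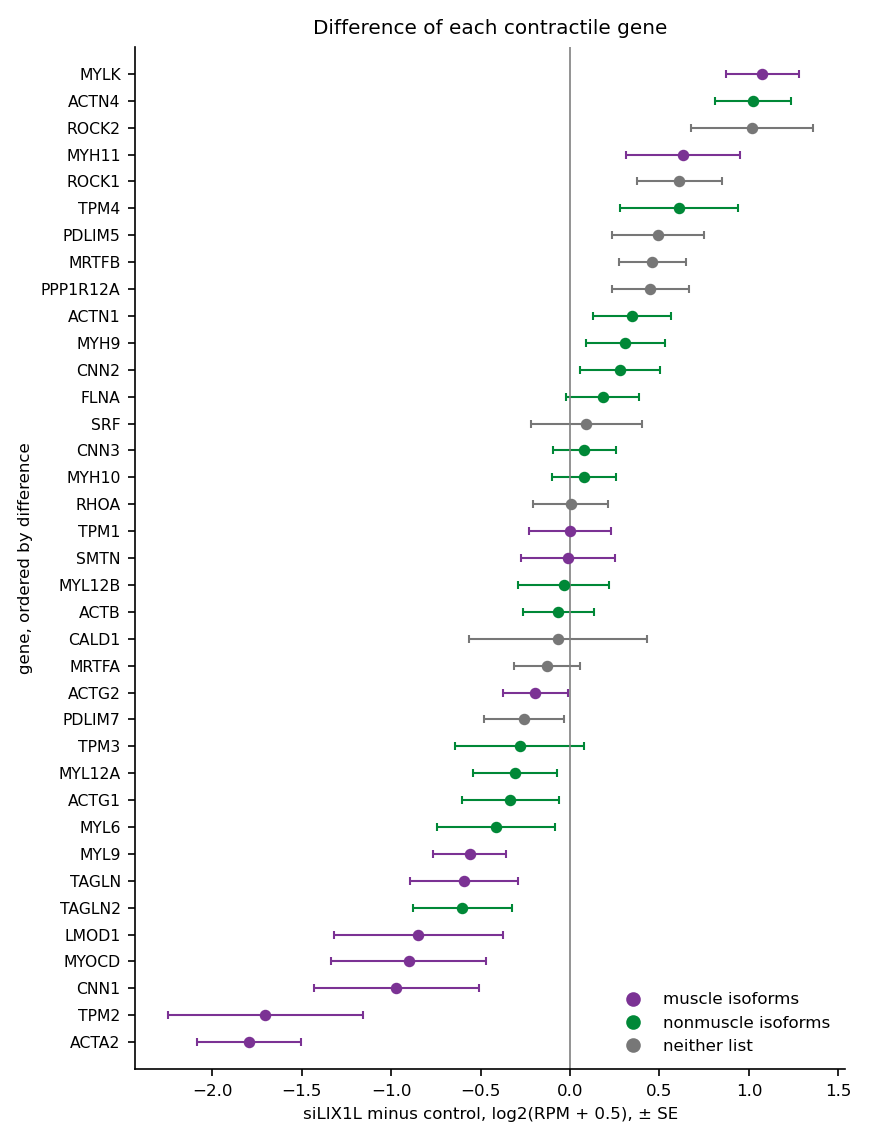
Difference of each of the 37 genes, siLIX1L minus control on the log2(RPM + 0.5) scale, with bars of 1 SE from limma, ordered by size and coloured by isoform class. ACTA2 is the lowest, at -1.79, and MYLK and ACTN4 are the highest; muscle isoforms make up most of the lower end.

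ACTA2, the α smooth muscle actin (ENSG00000107796, GRCh38 chromosome 10, 88935074 to 88991339, minus strand), had 132, 127 and 263 reads in siLIX1L 1, 2 and 3, against 580 and 647 in control 1 and 2. In RPM these are 8.89, 8.41 and 14.8 after LIX1L siRNA and 39.0 and 35.4 in controls. All siLIX1L libraries lay below both controls, and siLIX1L 3 was the highest of its group. The mean was 10.7 ± 3.54 RPM (SD, n = 3) against 37.2 ± 2.56 RPM (SD, n = 2), 3.48-fold lower, and the pooled reads were 3.39-fold lower with an exact 95% interval of 3.05 to 3.76 for counting error. ACTA2 fell in edgeR (log2 fold change -1.80, adjusted p = 0.0497), in DESeq2 (adjusted p = 1.41e-05) and in limma on log2(RPM + 0.5) (difference -1.79, SE 0.29, adjusted p = 0.0474). The edgeR call was lost without siLIX1L 1, 2 or 3 (adjusted p = 0.142, 0.247 and 0.0832) or control 2 (adjusted p = 0.0602), with a fold change between -2.13 and -1.65. For other genes below, limma was also run with a trend on transcript length and GC content removed. That fit left out ACTA2 and the other genes under the FPKM minimum. Whether the ACTA2 difference, from a gene with a longest transcript of 1.35 kb, depends on this trend was therefore not tested. In cell populations such as these, fewer cells that make a transcript and less of it per cell cannot be told apart.

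ACTA2 shares its locus with genes on the opposite strand, and no source used here tells whether the reads were counted by strand. The protein-coding neighbours within its span are STAMBPL1, a deubiquitinase, and FAS, a death receptor. STAMBPL1 had 14.7, 16.6 and 14.7 RPM after LIX1L siRNA and 14.5 and 10.4 RPM in controls, a pooled ratio of 1.25 (95% counting interval 1.11 to 1.42). FAS had 25.3, 20.2 and 15.8 RPM against 22.4 and 32.4 RPM, and its groups overlapped. The antisense gene ACTA2-AS1 also lies there, and 26 of the 37 genes have an annotated gene on the other strand. What these neighbours contribute to the ACTA2 reads was not tested.

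The other actins were much more abundant and did not separate by group. ACTG2, the γ actin of enteric smooth muscle (chromosome 2, 73892314 to 73919865, plus strand), had 220.0, 203 and 239 RPM against 272 and 234 RPM. Its groups overlapped, and the difference was -0.17 (SE 0.16, limma adjusted p = 0.503). ACTG1, the γ actin of all cells (chromosome 17, 81509971 to 81523847, minus strand), had 3324, 3032 and 4763 RPM after LIX1L siRNA, against 3820.0 and 5493 RPM in the controls. These groups overlapped too (difference -0.33, SE 0.28, limma adjusted p = 0.482). ACTB, the β actin of all cells, ranged from 5483 to 6204 RPM and from 5513 to 6952 RPM (limma adjusted p = 0.858). Per kb of the longest transcript, ACTA2 made up 0.138, 0.145 and 0.200% of the 4 actins after LIX1L siRNA, against 0.612 and 0.423% in controls. ACTG2 took 2.12 to 2.29% against 1.83 and 2.79%, and the rest was ACTB and ACTG1. The actin mRNAs are similar in their coding parts, and the sources used here do not tell how reads that match more than 1 of them were counted.

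**Figure D2:**
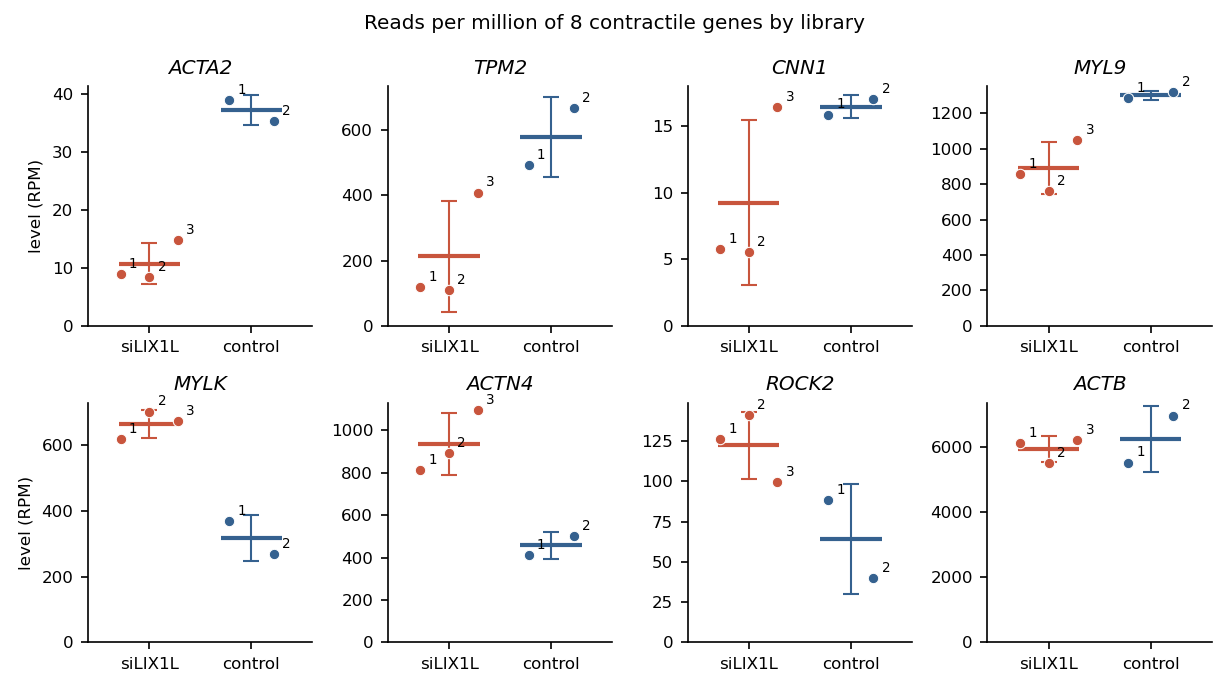
RPM in each library for 8 genes of the set, 1 panel each on an axis from 0, with siLIX1L left of control, numbers for replicates, and lines and bars for mean ± SD (n = 3 and n = 2). ACTA2 and MYLK separate the groups in opposite directions, whereas in TPM2 and CNN1 siLIX1L 3 lies far above siLIX1L 1 and 2 and next to the controls.

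Promoters are shown for ACTA2, the gene called, and for 2 actins that were not called, because the CArG box is the element through which SRF acts on this gene family. The windows are the 150 bases before an annotated start in RefSeq, build GRCh38.p14, written 5′ to 3′ on the strand of the gene. Capitals mark the CArG box, searched on both strands, or a near match in which 1 of its 6 inner bases is C or G. ACTA2 is at chr10:88952774-88952923 on the minus strand, ACTG2 at chr2:73892858-73893007 on the plus strand and ACTG1 at chr17:81512800-81512949 on the minus strand. These starts lie 38.6, 0.694 and 11.0 kb inside the 5′ ends of the ACTA2, ACTG2 and ACTG1 genes in GENCODE, which hold longer transcripts.
ACTA2: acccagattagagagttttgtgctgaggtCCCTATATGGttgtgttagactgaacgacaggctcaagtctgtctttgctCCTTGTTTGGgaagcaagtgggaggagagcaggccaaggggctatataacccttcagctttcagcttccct
ACTG2: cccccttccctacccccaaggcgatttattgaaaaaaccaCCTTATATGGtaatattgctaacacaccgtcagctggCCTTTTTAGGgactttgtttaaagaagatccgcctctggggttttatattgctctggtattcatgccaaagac
ACTG1: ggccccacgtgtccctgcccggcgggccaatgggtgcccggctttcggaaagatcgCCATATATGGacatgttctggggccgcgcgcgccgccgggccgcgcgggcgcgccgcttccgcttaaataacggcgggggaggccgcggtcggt

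The window of ACTA2 held 2 near matches, that of ACTG2 2 full boxes and that of ACTG1 1 full box. A RefSeq window was found for 32 of the 37 genes, in 64 windows; ACTB, MYOCD, TAGLN, MYH11 and MYL9 had none. In the 250 bases before the start, a full box stood in 10 of the 32 genes (31.2%), against 394 of all 27305 genes with a window (1.44%). Genes differ in their number of windows. Per window, the shares were 15.6% of the 64 and 1.16% of all 35116. The 10 genes are ACTG1, ACTG2, ACTN1, CNN2, FLNA, MYLK, ROCK2, SMTN, SRF and TPM4. The box of MYLK precedes a start 264 kb inside the gene, near its 3′ end, so it is not in the promoter of the full-length kinase, and that of SMTN precedes a start 20.9 kb inside. A near match stood in 12.5% of the 32, namely ACTA2, ACTN4, CALD1 and MYL12A, against 7.3% of all genes. Per window, it stood in 7.81% of the 64, against 5.96% of all windows. These matches describe letters in a window and not bound sites.

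Transgelins and calponins are actin-binding proteins that stiffen filaments or hold back myosin. None passed in limma, edgeR or DESeq2 on all 5 libraries without covariates. TAGLN2, the transgelin of many cell types (chromosome 1, 159918107 to 159925732, minus strand), had 470.4, 433 and 769.8 RPM after LIX1L siRNA and 771 and 869 RPM in controls. The groups did not overlap, but siLIX1L 3 came close to control 1 (difference -0.59, SE 0.28, limma adjusted p = 0.228). CNN1, the calponin of differentiated smooth muscle (chromosome 19, 11538717 to 11550323, plus strand), had 5.79, 5.56 and 16.4 RPM against 15.9 and 17.1 RPM. Its siLIX1L 1 and 2 were low, and siLIX1L 3 lay between the controls (difference -0.47, SE 0.22, limma adjusted p = 0.234). TAGLN, or SM22, an early smooth muscle marker, had 108, 95.8 and 181 RPM against 212 and 163 RPM, with siLIX1L 3 again among the controls (difference -0.57, SE 0.30, limma adjusted p = 0.262). With a trend on transcript length and GC content removed, the limma differences were -0.31 for TAGLN2, -0.20 for CNN1 and -0.39 for TAGLN. PCSK7, a protease gene on the opposite strand of TAGLN, had 37.1, 40.9 and 44.1 RPM against 28.6 and 20.7 RPM. CNN2 and CNN3, calponins found outside muscle, overlapped between groups (limma adjusted p = 0.448 and 0.783).

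MYLK, myosin light chain kinase, which switches on the myosin motor (ENSG00000065534, chromosome 3, 123610049 to 123884331, minus strand), had 617, 700.4 and 672 RPM after LIX1L siRNA, against 367 and 268 RPM in controls. Every siLIX1L library lay well above both controls and the 3 were close together. Its mean was 2.42 ± 0.154 FPKM (SD, n = 3) against 1.16 ± 0.255 FPKM (SD, n = 2), a ratio of 2.09 in RPM. MYLK did not pass in limma (difference 0.67, SE 0.13, adjusted p = 0.0536) or edgeR (log2 fold change 1.06, adjusted p = 0.0578), and it passed in DESeq2 (adjusted p = 3.15e-04). With a trend on transcript length and GC content removed, its difference was 0.41 (limma adjusted p = 0.101). The MYLK locus encodes the long kinase, the short kinase of smooth muscle and telokin, which counts per gene cannot separate.

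The regulatory light chain of smooth muscle, MYL9 (chromosome 20, 36541484 to 36551447, plus strand), had values of the opposite sign from those of its kinase. It had 857, 763 and 1050.4 RPM after LIX1L siRNA, against 1284 and 1318 RPM in controls. The controls were alike and above all siLIX1L libraries, a level 1.46-fold lower after LIX1L siRNA (difference -0.55, SE 0.21, limma adjusted p = 0.150). With the length and GC trend removed, MYL9 differed by -0.41. The regulatory light chains of other cells, MYL12A and MYL12B, lie next to each other on chromosome 18 and are near-identical copies, so their reads could be split by the counting. MYL12A had 229, 208 and 245 RPM against 225 and 349.9 RPM, and MYL12B had 889.9, 809 and 785 RPM against 651 and 1102 RPM. Both overlapped between groups (limma adjusted p = 0.431 and 0.939), as did MYL6, the essential light chain (limma adjusted p = 0.465).

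Myosin heavy chains were mostly of the nonmuscle kind. MYH9, nonmuscle myosin IIA (chromosome 22, 36281277 to 36388067, minus strand), made up 92.3 to 95.0% of the 3 heavy chain genes per kb of transcript in all libraries. It had 2747, 2906 and 3626 RPM after LIX1L siRNA and 2832 and 2170.5 RPM in controls, groups that overlapped (difference 0.30, SE 0.21, limma adjusted p = 0.389). MYH11, the heavy chain of smooth muscle (chromosome 16, 15703172 to 15857033, minus strand), was barely detected, with 18, 17 and 17 reads against 5 and 14 reads. The siLIX1L values were higher than both controls, opposite in sign to ACTA2, with a pooled ratio of 1.90 (95% counting interval 1.10 to 3.40), and edgeR did not call it (log2 fold change 0.93, adjusted p = 0.290). NDE1, a dynein regulator, overlaps MYH11 on the other strand. MYH10, nonmuscle myosin IIB, had 169.9 to 194 RPM against 159.8 and 185 RPM (limma adjusted p = 0.819).

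Tropomyosins, the rods that lie along actin filaments, differed in their makeup from library to library. TPM2, or β-tropomyosin, abundant in smooth and slow muscle (chromosome 9, 35681992 to 35690121, minus strand), had 119.8, 110.4 and 409 RPM after LIX1L siRNA, against 493 and 666 RPM in controls. The groups did not overlap, and siLIX1L 3 held 3.55 times the mean of siLIX1L 1 and 2. TPM2 was 2.72-fold lower in the mean and did not pass (difference -1.65, SE 0.55, limma adjusted p = 0.123, edgeR adjusted p = 0.173). TPM4, a tropomyosin of nonmuscle stress fibres (chromosome 19, 16067021 to 16103005, plus strand), had 1712, 1727 and 1932 RPM against 1752 and 785 RPM. Here control 2 alone was low, and control 1 lay among the siLIX1L libraries (difference 0.59, SE 0.33, limma adjusted p = 0.290). With the length and GC trend removed, TPM2 differed by -1.29 and TPM4 by 0.62. TPM1 and TPM3, which serve muscle and other cells through splice forms, overlapped between groups (limma adjusted p = 0.999 and 0.664). TPM3 was 2.10 times as high in siLIX1L 3 as in the mean of siLIX1L 1 and 2.

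Per kb of the longest transcript, TPM2 took 8.59, 8.02 and 20.1% of the 4 tropomyosins after LIX1L siRNA, against 25.9 and 42.8% in controls. TPM4 took 64.1, 65.5 and 49.6% against 48.0 and 26.4%. In these shares all siLIX1L libraries lay to 1 side of both controls, with siLIX1L 3 and control 1 next to each other.

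**Figure D3:**
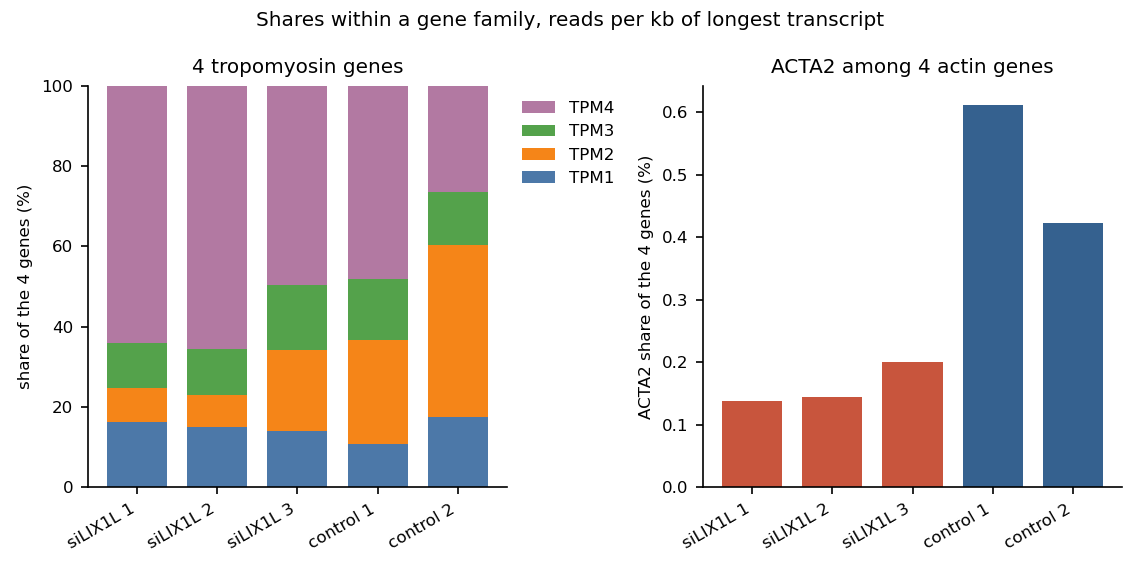
Left, share of the 4 tropomyosin genes in each library, in reads per kb of longest transcript; right, ACTA2 as a share of the 4 actin genes, on an axis that ends below 1%. TPM2 takes 8.02 to 20.1% after LIX1L siRNA against 25.9 and 42.8% in controls, and ACTA2 0.138 to 0.200% against 0.612 and 0.423%.

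Caldesmon, leiomodin and smoothelin, further filament proteins of contractile smooth muscle, showed no call in limma, edgeR or DESeq2 on all 5 libraries without covariates. LMOD1, leiomodin, which nucleates actin filaments in smooth muscle (chromosome 1, 201896452 to 201946588, minus strand), had 38, 30 and 57 reads after LIX1L siRNA, against 40 and 163 reads in controls. Control 2 alone was high and control 1 lay within the siLIX1L values in RPM (edgeR log2 fold change -1.20, adjusted p = 0.210). CALD1, caldesmon, an inhibitor of actomyosin (chromosome 7, 134744252 to 134970728, plus strand), had 286, 296 and 915 RPM against 389 and 513 RPM. Both controls lay inside the range of the siLIX1L libraries (limma difference 0.00, adjusted p = 0.998), and the sign turned in 7 of 16 other settings. SMTN, smoothelin, also overlapped, with 79.5 to 134 RPM against 92.2 and 101 RPM (limma adjusted p = 0.999).

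ACTN4, the α-actinin 4 that crosslinks actin in nonmuscle cells (ENSG00000130402, chromosome 19, 38647649 to 38731583, plus strand), had 813, 894 and 1097 RPM after LIX1L siRNA, against 412 and 503 RPM in controls. The groups were well apart, with a mean of 11.1 ± 1.74 FPKM (SD, n = 3) against 5.45 ± 0.764 FPKM (SD, n = 2) and a ratio of 2.04 in RPM. ACTN4 did not pass in limma (difference 0.91, SE 0.18, adjusted p = 0.0552) or edgeR (log2 fold change 1.01, adjusted p = 0.0739), and it passed in DESeq2 (adjusted p = 0.00218). With the length and GC trend removed, ACTN4 differed by 0.83. CAPN12, a calpain gene, overlaps it on the other strand. ACTN1, its close relative, had 1468, 1556 and 1613 RPM against 1463 and 1009 RPM, so that control 1 was close below siLIX1L 1 (limma adjusted p = 0.322). PDLIM5, a PDZ and LIM protein that binds α-actinin (chromosome 4, 94451857 to 94668227, plus strand), had 367, 407 and 314 RPM against 329 and 199 RPM. Its groups overlapped (difference 0.28, SE 0.15, limma adjusted p = 0.287), and the difference was 0.06 with the length and GC trend removed. Filamin A (FLNA), which links actin to membranes, and PDLIM7 also overlapped (limma adjusted p = 0.597 and 0.491).

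Of the transcriptional regulators, myocardin and MRTFB differed most, in opposite directions and without a call. MYOCD, myocardin, the smooth muscle and heart coactivator of SRF (chromosome 17, 12665890 to 12768949, plus strand), had 58, 62 and 43 reads after LIX1L siRNA, against 162 and 76 reads in controls. In RPM these are 3.90, 4.11 and 2.41 against 10.9 and 4.15, so control 1 was far higher and control 2 touched siLIX1L 2 (edgeR log2 fold change -1.11, adjusted p = 0.179). MRTFB, the more widely expressed myocardin-related factor B (chromosome 16, 14071321 to 14266773, plus strand), had 51.9, 59.4 and 48.8 RPM against 39.5 and 37.6 RPM. All siLIX1L values were above both controls (edgeR log2 fold change 0.46, adjusted p = 0.182). MRTFA had 61.6 to 71.6 RPM against 67.8 and 77.7 RPM (edgeR adjusted p = 0.653). SRF, the DNA-binding partner of all 3, had 60.2, 70.3 and 78.3 RPM against 92.4 and 45.7 RPM, with the controls on either side of the siLIX1L libraries (limma adjusted p = 0.889).

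In the RHOA arm no gene was called in limma, edgeR or DESeq2 on all 5 libraries without covariates. Both kinases, ROCK1 and ROCK2, had higher values in every siLIX1L library than in the controls. The groups were apart in 3 of the 4 genes of this arm (75%), against 44.1% of all genes in the edgeR test. ROCK1 (chromosome 18, 20946906 to 21111851, minus strand) had 154, 164 and 131 RPM after LIX1L siRNA, against 121 and 78.2 RPM in controls (edgeR log2 fold change 0.58, adjusted p = 0.166). ROCK2 (chromosome 2, 11179761 to 11348330, minus strand) had 126, 141 and 99.6 RPM against 88.4 and 40.1 RPM (edgeR log2 fold change 0.93, adjusted p = 0.142). In both kinases the groups did not overlap, control 2 was the lowest library and siLIX1L 3 the lowest of its group. PPP1R12A, the targeting subunit of myosin phosphatase and a substrate of both, had 190.3, 218 and 159 RPM against 154 and 122 RPM, groups that were also apart. Its difference of 0.23 (limma adjusted p = 0.260) was 0.02 with the length and GC trend removed. ROCK1 and ROCK2 were under the FPKM minimum of that fit, so the trend was not removed for them. RHOA, the small GTPase that activates the kinases, had 902 to 1200.4 RPM against 922 and 1077 RPM (limma adjusted p = 0.992).

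Muscle and nonmuscle isoforms were then set against each other. Of 12 genes classed as muscle isoforms, 9 had a negative and 3 a positive edgeR log2 fold change. Over all 13026 genes tested, 6867 were negative and 6159 positive. The median of the 12 was -0.56, against -0.04 over all genes tested. The muscle class includes MYOCD, a coactivator and not a filament protein, and TPM1, which serves muscle and other cells through splice forms. Of 15 genes classed as nonmuscle isoforms, 7 were negative and 8 positive, with a median of 0.06. They include TPM3, which also serves muscle. ACTA2 was the gene called among the 12 and none of the 15 was called by edgeR. The members of these classes were chosen with results of these data known, so the counts are a description. The groups were apart in 6 of the 12 muscle genes (50%), 4 lower and 2 higher. The same held for 3 of the 15 nonmuscle genes (20%), against 44.1% of all genes in the edgeR test. The 2 higher genes of the muscle class were MYLK and MYH11. SMTN, counted as positive at 0.02, and TPM1, counted as negative at -0.02, were level.

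Within a library, 14 ratios of a muscle to a nonmuscle isoform were formed from the reads, which removes library size. Such a design of 3 against 2 libraries cannot go below an exact two-sided permutation p of 0.2, and the ratios are therefore given as sizes; the 6 pairs at 0.2 had an adjusted p of 0.467 over the 14 pairs. In 5 pairs all siLIX1L libraries had a lower ratio than both controls, in 1 a higher one, and 8 overlapped. For single genes, the groups did not overlap in 44.1% of all genes in the edgeR test. The share over other pairs of genes was not computed. TPM2 to TPM4 differed by -2.32 on the log2 scale, a ratio 4.98-fold lower after LIX1L siRNA. ACTA2 to ACTB differed by -1.78 and ACTA2 to ACTG1 by -1.51. TPM2 to TPM3 differed by -1.43 and CNN1 to CNN2 by -1.30. These pairs rest on 3 genes classed as muscle isoforms, ACTA2, TPM2 and CNN1. Counts per gene do not separate the splice forms of a tropomyosin. In each of the 5 pairs siLIX1L 3 was the library of its group nearest to the controls. The pair that was higher, MYH11 to MYH10 at 0.97, rests on 52 reads of MYH11 after LIX1L siRNA and 19 in controls. The ratio of TAGLN to TAGLN2 differed by 0.01 and that of ACTG2 to ACTG1 by 0.14, with overlapping groups. The ratio of MYL9 differed by -0.25 to MYL12A and by -0.52 to MYL12B, also with overlap.

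**Figure D4:**
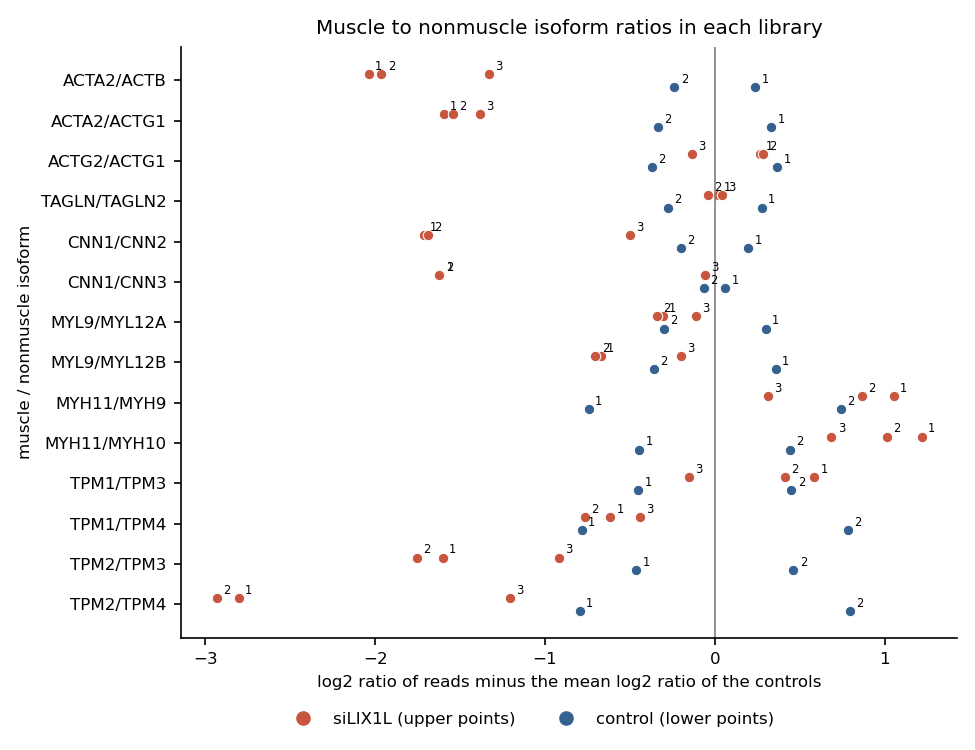
Log2 ratio of reads of a muscle isoform to a nonmuscle isoform in each library, minus the mean of the controls, with siLIX1L above control in each row and numbers for replicates. All siLIX1L points lie left of the controls for ACTA2/ACTB, ACTA2/ACTG1, CNN1/CNN2, TPM2/TPM3 and TPM2/TPM4, and right of them for MYH11/MYH10.

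The libraries of a group were not alike in these genes. SiLIX1L 1 and 2 differed by a chi-square per gene of 5.38 over all genes, against 52.7 or more in every other pair, and by less than 2-fold in all 36 genes of the set with a mean of at least 1 RPM. SiLIX1L 3 was over 2-fold from the mean of siLIX1L 1 and 2 in 4 of these 36 (11.1%), against 4.37% of 12436 genes. All 4 were higher in siLIX1L 3: TPM2, CALD1 (3.15 times), CNN1 (2.90 times) and TPM3. ACTA2 was 1.71 times and TAGLN 1.77 times as high. LIX1L was lowest in the same library, at 3.65 RPM against 6.60 and 7.08 RPM in siLIX1L 1 and 2. The controls were over 2-fold apart in 6 of the 36 genes (16.7%), against 13.2% of genes, with MYOCD, TPM4, ROCK2 and SRF lower and MYL6 and LMOD1 higher in control 2.

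**Figure D5:**
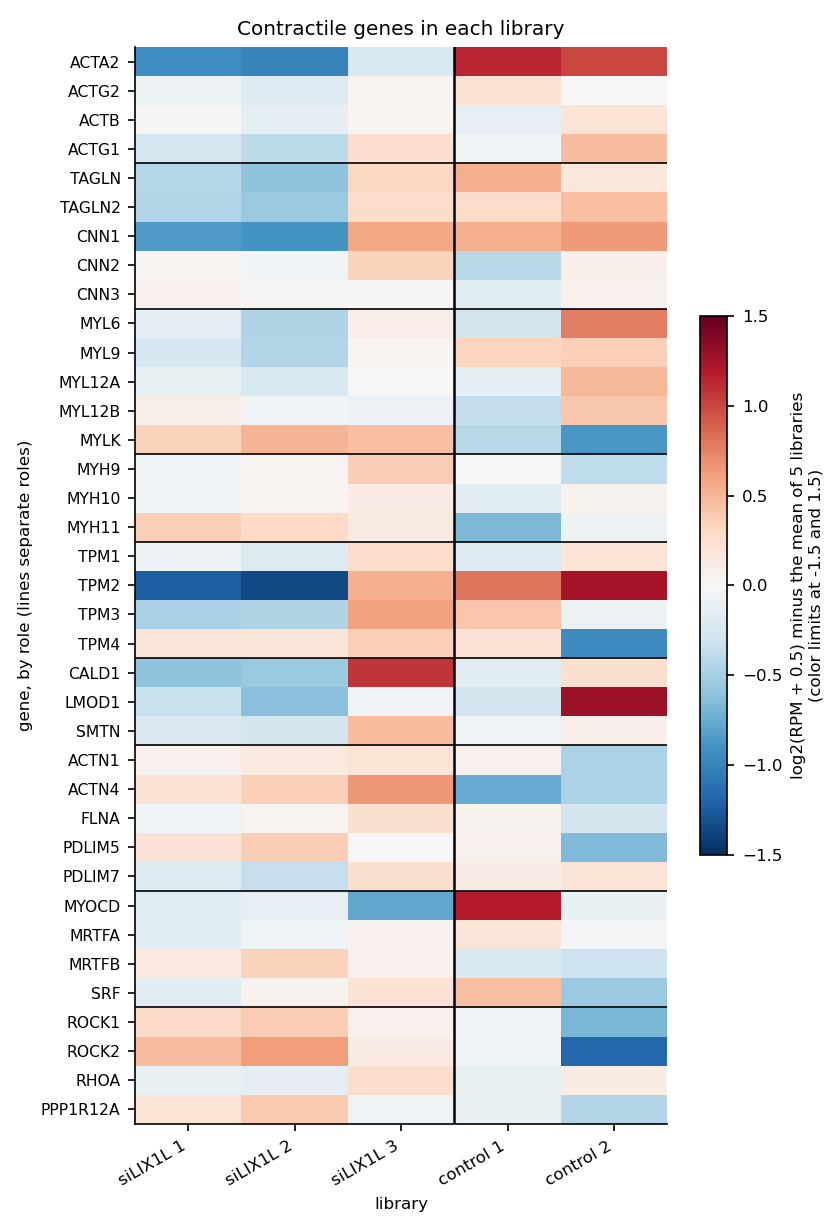
Level on the log2(RPM + 0.5) scale of each of the 37 genes in each library, minus the gene's mean over the 5 libraries, with siLIX1L libraries left of controls, genes grouped by role and colours limited to 1.5 either way. TPM2, CALD1, CNN1 and TPM3 are higher in siLIX1L 3 than in siLIX1L 1 and 2, whose columns are alike.

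A list of 67 other genes of contraction, its signalling and SRF-dependent transcription was read for context. Of these, 56 were tested in limma, where 1 rose and none fell, against 1.87% of all genes called. An unadjusted p under 0.05 was found for 15 of the 56, against 1785 of all 6464 genes tested. In edgeR 1 of 67 rose and none fell, against 0.891%, and in DESeq2 6 rose and 3 fell, against 9.9%. In limma 22 differences were negative and 34 positive, with a median of 0.23 against -0.01 over all genes tested. The groups were apart in 29 of the 56 (51.8%), 23 higher and 6 lower, against 46.5% of all genes, 1519 higher and 1484 lower. CDC42BPB, which encodes MRCKβ, a kinase related to the ROCKs that promotes light chain phosphorylation, had 142, 178 and 148 RPM after LIX1L siRNA and 66.5 and 53.7 RPM in controls. All siLIX1L values were more than 2-fold above both controls, and CDC42BPB rose 2.59-fold (difference 0.60, SE 0.10, limma adjusted p = 0.0489; edgeR adjusted p = 0.0451). Removal of the length and GC trend ended its limma call (difference 0.44, adjusted p = 0.0840). So did leaving out siLIX1L 1, 2 or 3 or control 2 (adjusted p = 0.151, 0.228, 0.0776 and 0.0656), with differences of 0.54 to 0.63. CSRP2, a LIM protein of stellate and smooth muscle cells, singled out after its values were seen, had 18.0, 15.6 and 17.5 RPM against 38.4 and 61.1 RPM. It did not pass in limma (difference -0.89, SE 0.16, adjusted p = 0.0503) or edgeR (adjusted p = 0.0502) and passed in DESeq2 (adjusted p = 3.26e-05), with all siLIX1L values below both controls.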

How the data were processed

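Genes and lists were chosen with earlier results of these data known. The authors deposited FPKM for 19936 human Ensembl genes per library and, for siLIX1L 3, a gene length and raw read counts, per the file headers. The submitters' processing notes name Bowtie 0.12.2, which does not align across splice junctions, and mm8, a mouse build at odds with the human IDs, so build and counting tool are uncertain. Lengths equal the gene span, introns included, in GENCODE 29 (GRCh38) for 19567 of 19926 genes found there (98.2%), and coordinates come from that annotation. FPKM times length gave whole reads within 0.01 for 100% of values and matched the deposited counts of siLIX1L 3. A count of 0 allows up to 3 reads, 0.164 to 0.202 RPM, for counting error only.

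Groups were compared mainly with limma 3.58.1 (R 4.3.3; trend, robust, two-sided, Benjamini-Hochberg) on log2(FPKM + 1), which understates changes of low genes, over genes with at least 1 FPKM in 2 libraries, without covariates. The recovered reads were tested with edgeR 4.0.16 (quasi-likelihood, TMM) and with DESeq2 1.42.0, and isoform ratios used them with 0.5 added. A fold such as 2.04-fold is a ratio of the group means in RPM. Alternatives varied the minimum, pseudocount, scaling, replicate block, length and GC trend (loess span 0.5) and libraries left out. Values per library are given for ACTA2, for called genes and for up to 2 with the smallest p per role; other genes were named after their values were seen.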

Additional observations from a re-analysis of the deposited data

How the results depend on the processing

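Each cause of a change given here was not tested. The count of genes of the set called lower, 0 in limma, was 1 on log2(RPM + 0.5), with edgeR, with edgeR without a filter and with DESeq2 (ACTA2 in each), and 0 to 1 with a library left out. The count called higher, also 0, was 1 with a minimum of 5 FPKM (ACTN4), 2 with quantile normalization, edgeR without a filter and DESeq2 (ACTN4 and MYLK in each), and 0 to 4 with a library left out. With edgeR, a library left out gave 0 to 4 lower and 0 to 6 higher, the most without control 1, where the lone control is assumed to vary like the siLIX1L libraries, and siLIX1L 1 and 2 averaged gave 0 lower. The log2 fold change of ACTA2 was -1.66 with siLIX1L 1 and 2 averaged, -0.48 in limma without a minimum level, and -2.13 to -1.65 with a library left out, where the call was kept without control 1. For the 67 pathway genes, 1 was lower with a pseudocount of 0.1 or quantile normalization, and 0 to 4 with a library left out. The count higher was 0 with no minimum, a minimum of 5 FPKM, median-ratio scaling, averaging or the trend removed, and 0 to 11 with a library left out. Over all genes, limma called 121; it called 0 without any 1 siLIX1L library, with averaging, without a minimum (3407 at an unadjusted p under 0.05) or with the trend removed, 1517 without control 1 and 258 without control 2, and 233 with quantile normalization. EdgeR called 116, 514 without a filter, 2998 without control 1 and 373 without control 2, and 0 without any 1 siLIX1L library.

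The deviations of numbers 1 and 2 in both groups correlated at -0.23 over 6464 genes. SiLIX1L 1 and 2 were close to each other, and siLIX1L 3 has no control of its number. This correlation therefore cannot tell whether shared replicate numbers pair the libraries. With the replicate block, limma called 1 gene of the set lower (TPM2) and 94 genes in all, and of the pathway genes 2 lower and 0 higher; edgeR called 3 lower (ACTA2, CNN1 and TPM2), 1 higher (ROCK2) and 1146 in all.

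Signs turned for ACTG1 with quantile normalization (0.17) and for CALD1 with averaging (0.19), edgeR (0.14), edgeR without a filter (0.16), DESeq2 (0.15) and a library left out (-0.38 to 0.20). With a library left out, log2 ratio differences ran from -0.23 to 0.51 for ACTG2/ACTG1, -0.27 to 0.28 for TAGLN/TAGLN2, -0.55 to 0.048 for MYL9/MYL12A, -0.17 to 0.73 for TPM1/TPM3 and -1.39 to 0.18 for TPM1/TPM4. Of the other values of single genes and ratios, 328 kept their direction and side of the threshold or, for ratios, moved by less than 1 SD, 15 kept their direction and passed the threshold, and CDC42BPB no longer passed in 9. Depth limits MYH11, MYOCD and LMOD1, which had few reads.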

Other observations

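A pair of muscle genes outside the 37 were singled out after their values were seen, and they had opposite signs. ACTC1, the actin of heart muscle, had 17, 13 and 16 reads in siLIX1L 1, 2 and 3, against 47 and 80 reads in control 1 and 2, or 0.861 to 1.14 RPM against 3.16 and 4.37 RPM. It was the striated muscle marker of the 9 examined that reached 1 RPM in 2 libraries. SYNPO2, or myopodin, an actin-bundling protein of smooth muscle, had 25.0, 30.3 and 14.1 RPM after LIX1L siRNA, against 12.8 and 9.35 RPM in controls (edgeR log2 fold change 1.05, adjusted p = 0.127; DESeq2 adjusted p = 0.0406). In both genes the groups did not overlap.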
